A study of Neurospora crassa OR74A with 15 samples.

Results

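Transcript levels in mycelia moved to cellulose for 4 h were compared with those in mycelia moved to sucrose for the same time. The comparison was between 6 of the 15 RNA-seq libraries of the series, 3 on Avicel and 3 on sucrose, and covered 9733 gene loci. The filter and the fit behind the calls used 14 libraries, which also include those without carbon, on pectin and on orange peel powder. All libraries came from the wild-type strain FGSC 2489 of Neurospora crassa, a filamentous fungus that lives on dead plant material. Cultures had grown for 16 h in the light on 2% sucrose in Vogel's salts, a minimal medium, and were then washed 3 times in the same salts without carbon and moved to new medium. One group received 2% Avicel, an insoluble microcrystalline cellulose, and the other received 2% sucrose again. A group of 3 libraries moved to the salts without any carbon is given beside them, since Avicel differs from sucrose both by the presence of cellulose and by the loss of a ready sugar. Pregrowth on sucrose, washing and harvest after transfer were common to all 3 groups, so the sucrose group is a return to the pregrowth sugar. The labels assign these 9 libraries to an earlier study, and the design text calls replicates biological. The single strain and single time mean that the values describe 1 genotype at 1 moment of the shift.

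Cellulose is too large to enter a cell. Neurospora secretes cellobiohydrolases, endoglucanases and oxidative enzymes that cut it into cellodextrins, which are imported by dedicated transporters and split by beta-glucosidases into glucose. The transcription factors CLR-1 and CLR-2 are needed for most of this response, and the repressor CRE-1 holds such genes down while glucose is plentiful. On a preferred sugar the fungus instead grows fast, with high expression of ribosomal protein genes and of the enzymes that make amino acids, nucleotides and lipids.

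The authors deposited FPKM, in which fragments are divided by the length of the transcript and by a library constant, and these were compared on the log2(FPKM + 1) scale, which understates the change of low genes. Coverage times transcript length summed to 518, 2551 and 2427 megabases in Avicel replicates 1 to 3 and to 515, 2386 and 2146 in sucrose replicates 1 to 3, so both replicates numbered 1 are the shallow ones. Both also stood apart in their profiles. Pearson's r of Avicel replicate 1 with the other Avicel libraries was 0.904 and 0.917, against 0.990 between those. Of 7768 genes averaging 10 FPKM or more, 859 were over 1 log2 unit higher in it than in the mean of the others. Another 662 were lower by as much. Sucrose replicate 1 correlated at 0.957 with each of the other sucrose libraries, against 0.989 between those. Of the same 7768 genes, 441 were over 1 log2 unit higher in it and 1040 lower by as much. Between 1036 and 1684 loci were listed at 0 on Avicel and between 1645 and 2341 on sucrose. All correlations here are across genes, which are not independent replicates.

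The switch changed a large part of the transcriptome. Of 8700 genes tested, 4232 were called different (48.6%), with 2632 higher on Avicel (30.3%) and 1600 lower (18.4%), where a call needed a Benjamini-Hochberg adjusted p below 0.05 in limma and a change of 1 log2 unit or more in size. The 3 Avicel and 3 sucrose values did not overlap for 5538 genes (63.7%). The median log2 fold change over all genes was 0.24, so list medians below are read against that value. The balance of directions depends on how libraries are scaled. Quantile normalization gave 1862 higher and 1826 lower genes (50.5% of calls higher, median 0.01), and scaling to an equal sum of FPKM times length gave 3245 and 1221 (72.7%, median 0.60), against 62.2% as deposited.

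Many of the changes were large. Among the 2632 higher genes the median increase was 2.20 log2 units, 779 changed by over 3 and 258 by over 5, and 416 were listed at 0 in all 3 sucrose libraries. The 1600 lower genes had a median decrease of 2.04 log2 units, with 413 over 3 and 57 over 5, and 11 of them were listed at 0 in all 3 Avicel libraries. Calls were also counted by level. Where the mean over the 14 libraries in the fit lay between 1 and 10 FPKM, 48.3% of 932 genes were higher and 2.25% lower, while of 723 genes at 1000 FPKM and over, 31.8% were higher and 32.6% lower. The classes and the filter use that mean, to which sucrose gives 3 of the 14 libraries, so a weak gene with transcript on sucrose alone is dropped more readily than one silent on sucrose. Without the filter 9136 genes were tested, with 2667 higher and 1598 lower, so the counts over all genes barely depended on the filter. Whether the split by level and the count of genes listed at 0 on sucrose depend on it was not tested. On each of the 7 large supercontigs, 27.7% to 35.6% of genes were higher and 14.9% to 21.0% lower.

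**Figure D1:**
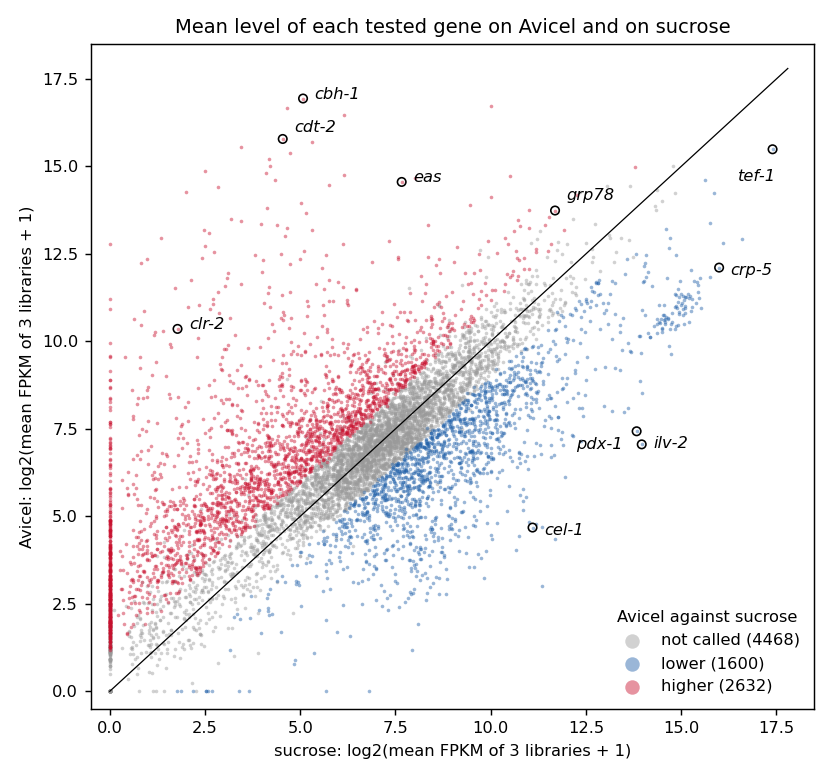
Mean FPKM of each tested gene in the 3 sucrose libraries (horizontal) and the 3 Avicel libraries (vertical), both as log2(mean FPKM + 1), with called genes in red (2632 higher) and blue (1600 lower) and the line of equal level in black. The cellulase gene cbh-1, the transporter gene cdt-2 and the regulator gene clr-2 lie far above the line, and ilv-2, pdx-1 and cel-1 of biosynthesis far below it.

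The most abundant transcripts changed. On sucrose, 128 tested genes averaged 10000 FPKM or more, and 116 of these were lower on Avicel, 93 of them by over 3 log2 units. On Avicel 53 genes reached that level, and 38 of these were higher than on sucrose, 30 by over 3 log2 units. These counts describe levels of the same libraries and are no separate test. The 5 genes with the highest means on sucrose were tef-1, NCU11815, aac, crp-5 and NCU06110 (whose call was lost with the replicate number as a block, adjusted p = 0.0993, and without any 1 of Avicel replicates 2 and 3 or sucrose replicates 1 and 2), and those on Avicel were cbh-1, ccg-1, gh11-2, gh6-2 and cdt-2. The gene aac, for the mitochondrial ADP/ATP carrier, was at 12498, 4690.3 and 4591 FPKM on Avicel and 68191, 67286 and 75624 on sucrose. NCU11815, which has no symbol in the gene table used, was at 14184, 4519 and 4557 on Avicel and 58561, 129865 and 110106 on sucrose.

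Of 7 tested regulator genes of plant cell wall enzymes and carbon use, 5 were higher on Avicel (against 30.3% of all genes) and none lower. The clr-2 gene (NCU08042, supercontig 10.4, positions 4001190 to 4004631), for the activator of cellulase genes, was at 1521, 1122 and 1289.6 FPKM on Avicel and 2.13, 2.74 and 2.42 on sucrose. Its lowest Avicel value was 409 times its highest sucrose value, with a log2 fold change of 8.57 (SE 0.39, limma adjusted p = 4.93e-09). Its partner clr-1 (NCU07705) was at 519, 936 and 950.3 on Avicel and 53.01, 43.3 and 40.4 on sucrose, a log2 fold change of 4.06 (SE 0.23, limma adjusted p = 3.19e-08). The xylan regulator gene xlr-1 (NCU06971) stood at 984, 1183 and 1303 on Avicel against 5.39, 10.5 and 10.5 on sucrose, a log2 fold change of 6.93 (SE 0.22, limma adjusted p = 3.82e-10). None of these 3 genes overlapped between groups, and all were also higher on Avicel than without carbon, by 6.80 log2 units for clr-2, 2.03 for clr-1 and 1.78 for xlr-1. That comparison, whose background was 4.03% higher and 2.33% lower, shares the Avicel libraries with the main one.

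The remaining regulators moved less. The gene vib-1 (NCU03725), for a factor needed for full cellulase production, was at 1184, 1362 and 1476 FPKM on Avicel and 644, 440.3 and 432 on sucrose, a log2 fold change of 1.43 (SE 0.23, limma adjusted p = 0.000166). The gene col-26, for a regulator of starch and glucose responses, was at 1476, 402 and 429 on Avicel and 164, 233 and 256 on sucrose, a log2 fold change of 1.56 (SE 0.51, limma adjusted p = 0.0176, and 0.95 without Avicel replicate 1). Its adjusted p was 0.0684 without Avicel replicate 1 and 0.109 with the replicate number as a block. The co-repressor gene rco-1 was at 1068, 941 and 943 on Avicel and 919, 908 and 932 on sucrose and was not called (log2 fold change 0.10). The glucose repressor gene cre-1 was at 699.5, 113 and 139.9 on Avicel and 566, 551 and 649.7 on sucrose, so that Avicel replicate 1 lay above and the others below the sucrose values. It was not called (log2 fold change -1.39, limma adjusted p = 0.0609), and without Avicel replicate 1 it was lower, at -2.21 (adjusted p = 0.00092).

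Genes for cellulose breakdown held some of the largest increases. Of 21 tested genes of the cellulose degradation list, 19 were higher on Avicel and none lower, with a median log2 fold change of 9.64. With values under 10 FPKM set to 10, 15 were called higher, the lowest count among the alternatives. The median was 9.46 to 9.90 when any 1 library other than Avicel replicate 1 was left out, and 9.32 without that one. Of the list, gh7-3 was listed at 0 in all 6 libraries and lay below the filter, and gh6-1 and gh61-9 were not called. The cellobiohydrolase gene cbh-1 (NCU07340, supercontig 10.4, positions 4311049 to 4313881) was at 186620.0, 86756 and 104215 FPKM on Avicel and 11.2, 70.2 and 16.7 on sucrose. Its lowest Avicel value was 1237 times its highest sucrose value, and the log2 fold change was 12.23 (SE 0.53, limma adjusted p = 3.58e-09, and 12.98 without sucrose replicate 2).

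Other secreted enzymes of cellulose attack followed. The second cellobiohydrolase gene gh6-2 (NCU09680) was at 148857, 51927 and 69064 FPKM on Avicel and 69.8, 86.1 and 54.7 on sucrose. The endoglucanase gene gh5-1 (NCU00762) was at 68101, 32852 and 43671 on Avicel and 0, 25.6 and 3.77 on sucrose. In both cases Avicel replicate 1 held the highest value, and the lowest Avicel value was 603 times the highest sucrose value for gh6-2 and 1282 times for gh5-1. The log2 fold changes were 10.18 (SE 0.33, limma adjusted p = 4.06e-10) for gh6-2 and 13.16 (SE 0.87, limma adjusted p = 8.96e-08, and 12.00 without sucrose replicate 1 and 14.36 without sucrose replicate 2) for gh5-1. The gene cdh-1 (NCU00206), for cellobiose dehydrogenase, which passes electrons to the oxidative GH61 enzymes, was at 21319.9, 9524 and 12497 on Avicel against 16.7, 20.2 and 12.4 on sucrose, a log2 fold change of 9.64 (SE 0.29, limma adjusted p = 2.79e-10). Of 11 gh61 genes tested, 10 were higher, of which gh61-10 and gh61-11 had groups that overlapped. The largest levels among them were those of gh61-4, at 49138, 17896 and 22868 on Avicel and 0, 14.1 and 0 on sucrose, and of gh61-5, at 37828, 20619 and 27142 on Avicel and 8.09, 25.7 and 14.8 on sucrose. By contrast gh61-9 was at 442, 156 and 148 on Avicel and 451, 167 and 174 on sucrose, with overlapping groups.

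Genes for the uptake and cleavage of cellodextrins rose too. All 8 tested genes of the cellodextrin list were higher, with a median of 9.44. The transporter gene cdt-2 (NCU08114) was at 34039.6, 64599 and 70796 FPKM on Avicel and 5.58, 49.7 and 11.6 on sucrose, and cdt-1 (NCU00801) at 41156, 12847 and 13786 on Avicel and 77.2, 53.1 and 28.4 on sucrose. Avicel replicate 1 was the lowest of its group for cdt-2 and the highest for cdt-1. Their log2 fold changes were 11.70 (SE 0.59, limma adjusted p = 1.09e-08, and 11.06 without sucrose replicate 1 and 12.53 without sucrose replicate 2) and 8.60 (SE 0.50, limma adjusted p = 3.59e-08). The intracellular beta-glucosidase gene gh1-1 (NCU00130) was at 33410.4, 43047 and 50743 on Avicel against 13.2, 47.1 and 16.04 on sucrose, a log2 fold change of 10.85 (SE 0.39, limma adjusted p = 1.02e-09). The smallest change of the list was that of gh3-5, with 402, 194 and 193 on Avicel and 144, 81.6 and 88.1 on sucrose and a log2 fold change of 1.28 (SE 0.32, limma adjusted p = 0.00423). Without Avicel replicate 1, 7 of the 8 genes were called.

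Genes for other plant cell wall polymers rose on cellulose as well. Of 16 tested genes for xylan breakdown, 14 were higher (median 7.92), and NCU07351 and gh10-4 were not called. The xylanase gene gh11-2 (NCU07225) was at 126366, 84185 and 103438 FPKM on Avicel and 0, 66.8 and 5.07 on sucrose. The groups were far apart, with a log2 fold change of 13.76 (SE 1.06, limma adjusted p = 3.17e-07, and 12.31 without sucrose replicate 1 and 15.36 without sucrose replicate 2). The esterase gene NCU04870 was at 9399, 5098 and 6862 on Avicel and was listed at 0 in all 3 sucrose libraries, so no fold is given. All 5 pentose-use genes were higher (median 4.42, and 5.06 without Avicel replicate 1). The xylose reductase gene xr (NCU08384) was at 8539.9, 36991 and 37166 on Avicel and 62.97, 83.2 and 64.4 on sucrose, with Avicel replicate 1 the lowest of its group and still 103 times the highest sucrose value. Its log2 fold change was 8.33 (SE 0.45, limma adjusted p = 1.88e-08, and 9.04 without Avicel replicate 1). Of 6 tested pectin genes, 5 were higher and gh28-1, a polygalacturonase gene, was lower, at 24.2, 19.2 and 17.9 on Avicel and 67.5, 83.5 and 78.6 on sucrose, a log2 fold change of -1.86 (SE 0.19, limma adjusted p = 4.02e-06). The smallest increase of that list, 1.62 for NCU06326, was 0.59 without Avicel replicate 1, and its call was also lost without any 1 of the sucrose libraries and with the replicate number as a block (adjusted p = 0.158).

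The sucrose levels of the genes that were high on Avicel differed between the sucrose libraries. For 27 genes at 5000 FPKM or more in every Avicel library and changed by 8 log2 units or more, the sucrose value was taken as a percent of the Avicel value with the same replicate number. The median was 0.0396% for replicate 1, with 9 genes listed at 0, and 0.0536% for replicate 3, with 3 at 0. In replicate 2 the median was 0.124%, 1 gene was at 0, and the quartiles were 0.0818% and 0.210%. For cbh-1 the values were 0.00598%, 0.0809% and 0.0161% in replicates 1 to 3. Without sucrose replicate 2 the log2 fold change of cbh-1 was 12.98 and that of gh11-2 was 15.36. Whether reads or RNA of Avicel samples reached the sucrose libraries, sucrose replicate 2 above all, was not tested. The ratios to the highest sucrose value given above for clr-2, cbh-1, gh6-2, gh5-1 and xr all use sucrose replicate 2 and share this doubt.

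**Figure D2:**
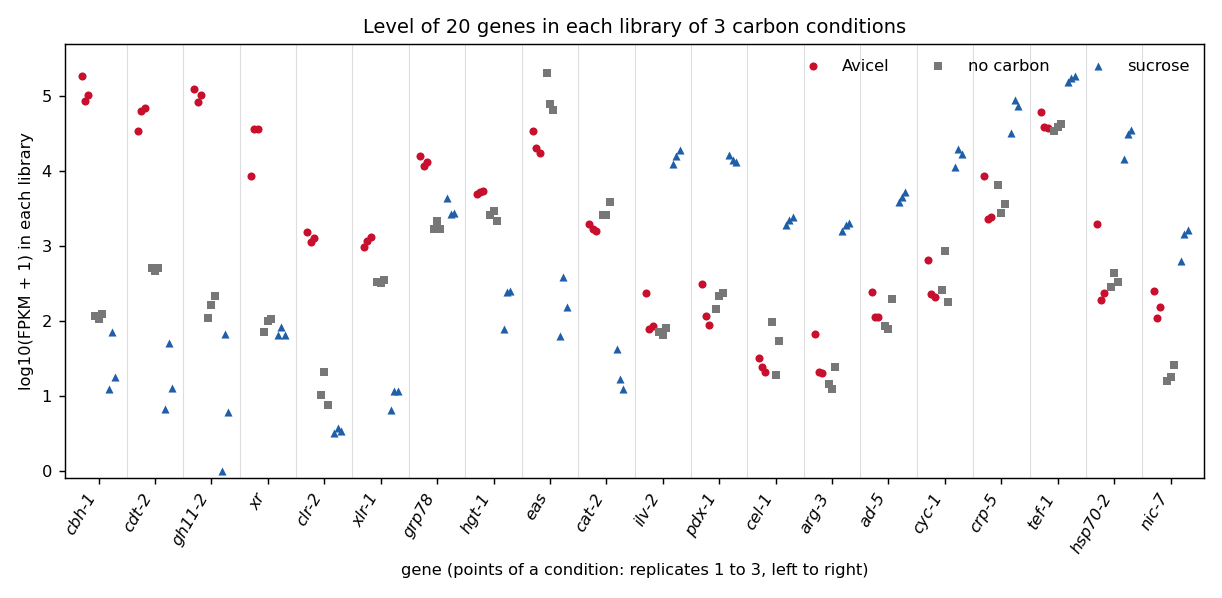
Level of 20 genes in each library as log10(FPKM + 1), with Avicel as circles, no carbon as squares and sucrose as triangles. The genes cbh-1, cdt-2, gh11-2 and xr are high in the Avicel libraries and lower in both other conditions. The genes ilv-2, pdx-1, arg-3 and crp-5 are high on sucrose and lower in both other conditions.

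Genes for folding of secreted proteins rose. Of 8 tested genes of the endoplasmic reticulum list, 6 were higher (75%, against 30.3% of all genes) and none lower (median 1.53). The chaperone gene grp78 (NCU03982) was at 15979, 11826 and 13257 FPKM on Avicel and 4451, 2710.0 and 2747 on sucrose, a log2 fold change of 2.08 (SE 0.25, limma adjusted p = 1.28e-05). NCU09223, for protein disulfide isomerase, which forms disulfide bonds, was at 9711, 9099 and 11192 on Avicel and 2315, 1477 and 1488 on sucrose, a log2 fold change of 2.53 (SE 0.24, limma adjusted p = 2.02e-06). The groups did not overlap in either case. NCU01856 (hac-1), for the transcription factor of the unfolded protein response, was at 3672, 1629.8 and 1686 on Avicel and 1193, 854 and 1034 on sucrose, a log2 fold change of 1.09 (SE 0.30, limma adjusted p = 0.00683). It fell under the threshold of 1 without Avicel replicate 1 (0.70) and without sucrose replicate 2 (0.96). All 6 called genes were also higher on Avicel than without carbon.

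Both sugar transporter genes tested were higher. The high-affinity glucose transporter gene hgt-1 (NCU10021) was at 4921, 5254 and 5466 FPKM on Avicel, 76.99, 242 and 252 on sucrose and 2623, 2929.8 and 2132 without carbon, a log2 fold change over sucrose of 4.95 (SE 0.37, limma adjusted p = 2.48e-07). The glucose sensor gene sor-4, also known as rco-3, was at 204, 317 and 297 on Avicel and 41.3, 100.3 and 76.6 on sucrose, a log2 fold change of 1.96 (SE 0.32, limma adjusted p = 0.000166). Both rose with no overlap between groups. The invertase gene inv, whose product splits sucrose outside the cell, was at 5334, 653 and 273 on Avicel and 313, 426 and 468 on sucrose. It was high in Avicel replicate 1 alone and was not called (limma adjusted p = 0.189).

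**Figure D3:**
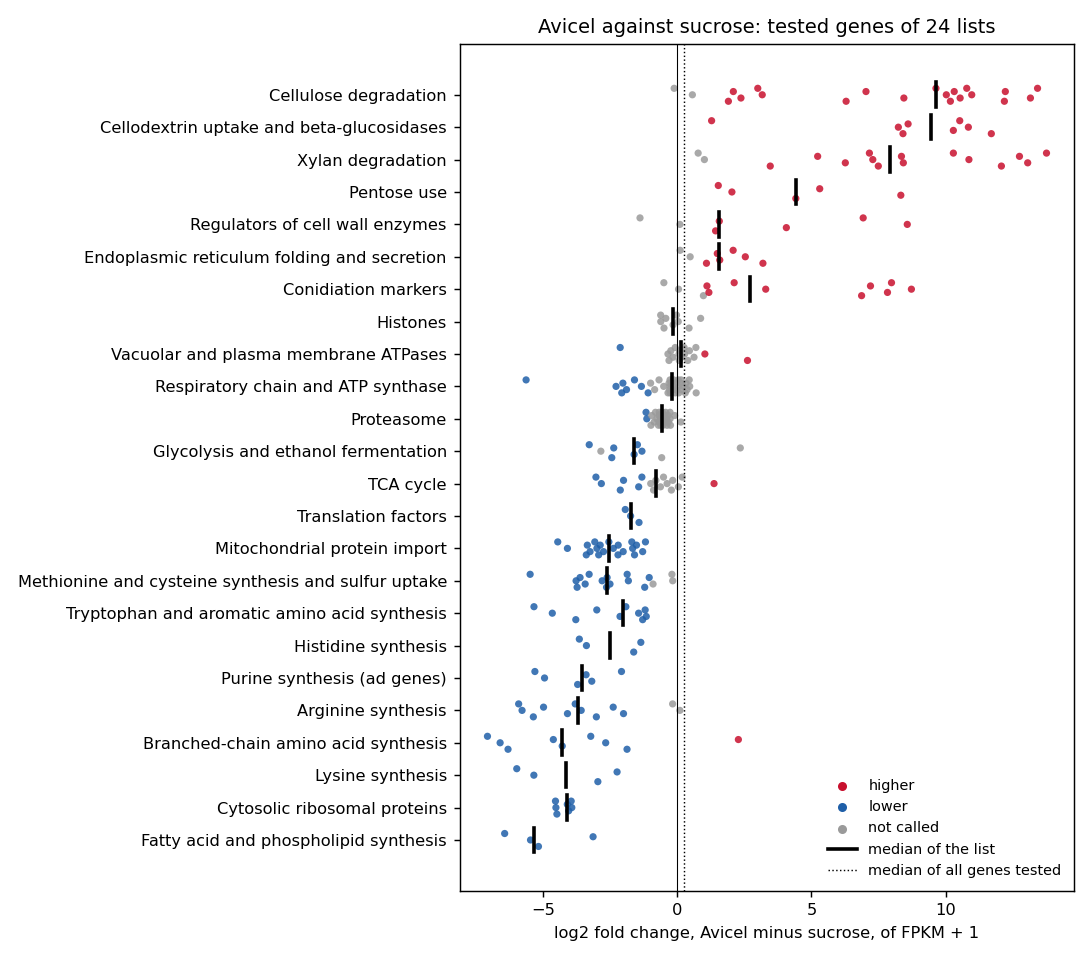
Log2 fold change of Avicel minus sucrose for the tested genes of 24 lists, 1 point a gene, red where higher, blue where lower and grey where not called, with each list's median as a black bar and the median of all genes (0.24) as a dotted line. Cellulose genes reach 13.43, most respiratory chain and proteasome genes lie near 0, and biosynthesis genes lie to the left, down to -7.08.

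Transcripts of the protein synthesis machinery fell. All 7 cytosolic ribosomal protein genes that carry a crp symbol were lower (background 18.4%), with a median of -4.10 and a range from -4.54 to -3.93. Ribosomal protein genes without such a symbol are not in this list. The gene crp-5 (NCU04552) was at 8539, 2282 and 2432 FPKM on Avicel and 32407, 88681 and 75144 on sucrose, a log2 fold change of -4.05 (SE 0.54, limma adjusted p = 3.18e-05, and -4.67 without Avicel replicate 1). For each of the 7 genes Avicel replicate 1 was the highest of its group and sucrose replicate 1 the lowest, and the groups still did not overlap. The median was -4.82 without Avicel replicate 1 and -5.11 without both libraries numbered 1. The elongation factor gene tef-1 (NCU02003) was at 61254, 38531 and 38342 on Avicel and 154487, 176205 and 188323 on sucrose, a log2 fold change of -1.94 (SE 0.40, limma adjusted p = 0.000962). With the replicate number as a block its adjusted p was 0.194, and 1 of the 3 translation factor genes tested was then called, as against all 3. Under quantile normalization 1 of the 3 was called as well. The gene cpc-2, for a ribosome-bound scaffold of the RACK1 type, was at 4236, 794 and 788 on Avicel and 26173, 35854 and 39827 on sucrose, a log2 fold change of -4.59 (SE 0.57, limma adjusted p = 1.93e-05, and -5.40 without Avicel replicate 1).

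Branched-chain amino acid synthesis held some of the largest decreases of the genome. Of 9 tested genes of that list, 8 were lower and ilv-5 was higher, with a median of -4.29. The gene ilv-2 (NCU03608, supercontig 10.5, positions 1828479 to 1830575), for ketol-acid reductoisomerase of isoleucine and valine synthesis, was at 235, 78.05 and 83.7 FPKM on Avicel and 12406, 16204 and 19370.2 on sucrose. Its lowest sucrose value was 52.8 times its highest Avicel value, with a log2 fold change of -7.08 (SE 0.40, limma adjusted p = 2.79e-08). The leucine genes went the same way. The isopropylmalate isomerase gene leu-2 (NCU04385) was at 18.9, 15.02 and 12.7 on Avicel and 1225, 1655 and 1991 on sucrose, and the isopropylmalate dehydrogenase gene leu-1 (NCU06232) at 185, 111 and 92.9 on Avicel and 2778, 3374 and 3137 on sucrose. The isopropylmalate synthase gene leu-4, which opens the leucine branch, was at 133, 124 and 117 on Avicel and 1138, 1133 and 1259 on sucrose. These leucine genes changed by -6.61, -4.62 and -3.23 log2 units, with no overlap between groups. The list also holds leu-5 and leu-6, which encode leucyl-tRNA synthetases and not synthesis enzymes, and both were lower, with log2 fold changes of -1.88 and -2.67. The exception ilv-5 (NCU02397) was at 381, 448 and 364 on Avicel and 233, 58.1 and 38.98 on sucrose, a log2 fold change of 2.27 (SE 0.52, limma adjusted p = 0.00223).

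Most arginine genes fell. Of 12 tested, 10 were lower and none higher, with a median of -3.70, and arg-14 and arg-15 were not called. The carbamoyl phosphate synthetase subunit genes arg-2 (NCU07732) and arg-3 (NCU02677) were at 222, 82.9 and 86.9 FPKM and 66.6, 19.8 and 18.96 FPKM on Avicel. On sucrose they were at 2830.1, 4559 and 4072 and 1582, 1885 and 2062. Avicel replicate 1 was the highest of its group for both, and their log2 fold changes were -4.99 and -5.92. The ornithine carbamoyltransferase gene arg-12 and the argininosuccinate genes arg-1 (synthetase) and arg-10 (lyase) changed by -3.02, -3.58 and -5.37. For arg-10 the values were 49.2, 44.6 and 43.8 on Avicel and 1949, 2184 and 1694 on sucrose, with a wide gap between the groups. The ornithine aminotransferase gene ota, of arginine breakdown, was at 307, 242 and 193 on Avicel and 980.4, 982 and 979 on sucrose, a log2 fold change of -2.01 (SE 0.32, limma adjusted p = 0.000139).

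The other amino acid pathways fell with few exceptions. All 4 histidine, all 4 lysine and all 10 aromatic amino acid genes tested were lower, as were 14 of 17 genes of sulfur uptake and sulfur amino acids and 6 of 8 genes for threonine, serine, proline and asparagine. The list medians were -2.51, -4.16, -2.03, -2.62 and -2.31. The aromatic list includes trp-5, for tryptophanyl-tRNA synthetase, with a log2 fold change of -1.29. The methionine synthase gene met-8 (NCU06512) was at 4283, 1844 and 1717 FPKM on Avicel and 31152, 27439.7 and 29925 on sucrose, a log2 fold change of -3.63 (SE 0.31, limma adjusted p = 8.46e-07). The ATP sulfurylase gene cys-11 (NCU01985), of the first step of sulfate assimilation, was at 271, 79.2 and 72.2 on Avicel and 4193, 5525 and 6207 on sucrose, a log2 fold change of -5.49 (SE 0.40, limma adjusted p = 1.97e-07, and -6.10 without Avicel replicate 1). The sulfate permease gene cys-14 was at 34.4, 23.3 and 21.6 on Avicel and 465, 328 and 324 on sucrose, and the gene of their activator, cys-3, at 566, 547 and 561 on Avicel and 1282, 1270.1 and 1344 on sucrose. All of these genes were higher in every sucrose library than in any Avicel library.

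The transcription factor gene of general amino acid control was not called. The gene cpc-1 (NCU04050), the Neurospora counterpart of yeast GCN4, was at 4957, 4438 and 5343 FPKM on Avicel, 6575, 11796 and 10410.1 on sucrose and 5524, 3654 and 4733 without carbon. The Avicel and sucrose groups did not overlap, and at a log2 fold change of -0.93 (SE 0.23, limma adjusted p = 0.00365) it stayed just under the size a call needed. It was called lower without sucrose replicate 1 (-1.18, limma adjusted p = 0.000254). Protein levels were not measured.

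Nitrogen entry into amino acids fell in part. Of 14 tested nitrogen genes, 8 were lower (57.1%, against 18.4% of all genes) and 2 higher (14.3%, against 30.3%). The gene am (NCU01195), for the NADP-linked glutamate dehydrogenase that makes glutamate from ammonium, was at 3958, 2900.3 and 4099 FPKM on Avicel and 14824, 18741 and 18475 on sucrose, a log2 fold change of -2.26 (SE 0.21, limma adjusted p = 1.43e-06). Under quantile normalization it was at -0.83 and was not called, and 5 nitrogen genes were then lower in place of 8. The glutamine synthetase gene gln-1 was at 1987, 2089 and 2443 on Avicel and 5608, 9386 and 8721 on sucrose, a log2 fold change of -1.83 (SE 0.35, limma adjusted p = 0.000551). The gene gdh-1, for the NAD-linked enzyme that works in glutamate breakdown, moved the other way, at 2301, 923 and 459.5 on Avicel and 121, 99.3 and 103 on sucrose, a log2 fold change of 3.20 (SE 0.48, limma adjusted p = 8.82e-05, and 2.59 without Avicel replicate 1). The groups did not overlap for any of these 3 genes. The amino acid permease gene mtr was at 426, 187 and 65.7 on Avicel and 3631, 3100.3 and 3709 on sucrose, and the global nitrogen regulator gene nit-2 at 213, 253 and 262 on Avicel and 546, 424 and 572 on sucrose, both lower on Avicel. The log2 fold changes were -4.31 (SE 0.74, limma adjusted p = 0.000255, and -4.95 without Avicel replicate 1 and -3.61 without Avicel replicate 3) and -1.07 (SE 0.19, limma adjusted p = 0.000318).

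Nucleotide and polyamine synthesis fell in all genes tested. The 6 adenine genes, the 3 other purine and pyrimidine genes and the 3 polyamine genes were all lower, with medians of -3.56, -3.25 and -2.86. The adenine gene ad-5 (NCU02629) was at 240.3, 113 and 112 FPKM on Avicel and 3838, 4513 and 5293 on sucrose, a log2 fold change of -4.95 (SE 0.36, limma adjusted p = 2.20e-07). The gene pyr-3, for the enzyme that opens pyrimidine synthesis, was at 293, 56.5 and 64.4 on Avicel and 1195, 2053 and 2357 on sucrose, a log2 fold change of -4.12 (SE 0.52, limma adjusted p = 2.11e-05, and -4.87 without Avicel replicate 1). The ornithine decarboxylase gene spe-1, the first step to polyamines, was at 478, 226 and 275 on Avicel and 1453, 2981 and 2633 on sucrose, a log2 fold change of -2.86 (SE 0.35, limma adjusted p = 1.67e-05). No member of these 3 lists overlapped between groups.

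Lipid and cofactor genes held further large decreases. The fatty acid synthase subunit genes cel-1 and cel-2 lie beside each other on supercontig 10.4, at positions 4422513 to 4428535 and 4432595 to 4439201. On Avicel cel-1 was at 30.9, 23.3 and 19.7 FPKM and cel-2 at 58.97, 33.4 and 33.8. On sucrose they were at 1936, 2233 and 2409.6 and 1889, 1724 and 1933. The lowest sucrose value was 62.6 times the highest Avicel value for cel-1 and 29.2 times for cel-2, with log2 fold changes of -6.44 (SE 0.45, limma adjusted p = 1.34e-07) and -5.47. The inositol phosphate synthase gene inl and the phospholipid methyltransferase gene chol-1 changed by -5.18 (SE 0.48, limma adjusted p = 1.57e-06, and -5.87 without Avicel replicate 1) and -3.14 (SE 0.19, limma adjusted p = 5.29e-08), which makes 4 of 4 lower in the lipid list. Of 3 sterol genes tested, erg-1 and erg-4 were lower, and erg-3 was at 568, 948 and 971 on Avicel and 786, 1036 and 938 on sucrose, with overlapping groups.

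Among 17 tested genes for vitamins and cofactors, 11 were lower and 1 was higher (median -1.22). The vitamin B6 synthesis genes pdx-1 and pdx-2 are neighbours on supercontig 10.4, at positions 1608319 to 1609701 and 1605193 to 1607165. The gene pdx-1 was at 312, 115 and 87.8 FPKM on Avicel and 16419, 14043 and 13274 on sucrose, a log2 fold change of -6.62 (SE 0.39, limma adjusted p = 3.75e-08). Its neighbour pdx-2 was at 72.1, 46.6 and 41.6 on Avicel and 1005, 1009 and 1007 on sucrose, a log2 fold change of -4.25 (SE 0.29, limma adjusted p = 1.18e-07). Both fell with wide gaps between groups, and pdx-1 alone exceeded 10000 FPKM on sucrose. The next largest decrease of the list was -2.83 for nic-7, and rib-3 was higher, at 699, 445 and 323 on Avicel and 292, 174 and 143 on sucrose, a log2 fold change of 1.26 (SE 0.31, limma adjusted p = 0.00342). Without Avicel replicate 1 no gene of the list was called higher.

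Mitochondrial lists differed in their counts. All 21 tested genes for protein import into mitochondria were lower, with a median of -2.55, from -4.46 for the chaperonin gene hsp60 to -1.19 for tim14. The import channel gene tom40 (NCU01179) was at 232, 167 and 186 FPKM on Avicel and 1116, 1447 and 1785 on sucrose, a log2 fold change of -2.88 (SE 0.19, limma adjusted p = 1.13e-07). Of 38 tested respiratory chain genes 8 were lower (21.1%, near the 18.4% of all genes) and none higher, and the list median was -0.21, which turned positive under upper-quartile scaling, quantile normalization and scaling to an equal sum. No nuclear gene with a nuo symbol, for subunits of complex I, was called. The complex I gene nuo78 was at 1798, 1915 and 1864 on Avicel and 2285, 1900.2 and 1968 on sucrose, and nuo51 at 1837, 1909 and 1873 on Avicel and 2265, 1742 and 1942 on sucrose, both with overlapping groups. The 8 lower genes were those of cytochrome c (cyc-1), of the cytochrome bc1 complex (fes-1, cyt-1, qcr7 and qcr8), of cytochrome oxidase (cox-6) and of ATP synthase (atp-1 and atp-2). The calls of atp-1 and atp-2 were lost under quantile normalization, at -0.44 and -0.64.

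The largest decrease among them was that of cytochrome c. The gene cyc-1 (NCU01808) was at 657, 227 and 209 FPKM on Avicel and 11453, 19811 and 17131 on sucrose, and at 259.6, 855 and 176 without carbon. Its lowest sucrose value was 17.4 times the highest Avicel value, with a log2 fold change of -5.64 (SE 0.54, limma adjusted p = 1.99e-06). The gene ndi-1 (NCU00153), for the internal alternative NADH dehydrogenase, was at 16.6, 6.82 and 8.52 on Avicel and 262, 819 and 990.2 on sucrose, a log2 fold change of -5.77 (SE 0.47, limma adjusted p = 4.93e-07, and -6.37 without sucrose replicate 1). The alternative oxidase gene aod-1 was at 3444, 24.05 and 18.4 on Avicel and 737, 192 and 291 on sucrose. It was high in Avicel replicate 1 alone and was not called (limma adjusted p = 0.435).

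Genes of central carbon metabolism fell in part. Of 9 tested genes of glycolysis and fermentation, 6 were lower (66.7%, against 18.4% of all genes) and none higher. The enolase gene emp-7 (NCU10042) was at 8298, 4949.7 and 3836 FPKM on Avicel and 39793, 26032 and 24519.6 on sucrose, a log2 fold change of -2.44 (SE 0.31, limma adjusted p = 2.35e-05). Its call was lost under quantile normalization (-1.02, limma adjusted p = 0.0891), as were those of the aldolase gene fba (-0.27) and the phosphoglycerate kinase gene pgk (-0.50). The call of gpd-1, for glyceraldehyde-3-phosphate dehydrogenase, with a log2 fold change of -1.32 (SE 0.50, limma adjusted p = 0.0356, and -2.01 without Avicel replicate 1), was lost with the replicate number as a block (adjusted p = 0.156) and when Avicel replicate 2 or 3 or sucrose replicate 1 or 3 was left out. The pyruvate decarboxylase gene cfp was at 15862, 532 and 97.1 on Avicel and 34410.4, 4347 and 2083 on sucrose, so both shallow libraries lay far above their groups, and it was not called. Of 17 TCA cycle genes 6 were lower (35.3%) and 1 higher (5.88%), against 18.4% and 30.3% of all genes. The citrate synthase gene cit-1 was at 2799, 1757 and 1972 on Avicel and 10992, 6923 and 8273 on sucrose, a log2 fold change of -2.01 (SE 0.22, limma adjusted p = 5.95e-06).

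Of 7 tested genes of the glyoxylate cycle and gluconeogenesis, 3 were higher (42.9%) and 2 lower (28.6%), against 30.3% and 18.4% of all genes. The fructose bisphosphatase gene fbp-1 was at 408, 283 and 153 FPKM on Avicel, 88.02, 37.8 and 28.3 on sucrose and 867, 1348 and 522 without carbon, a log2 fold change over sucrose of 2.49 (SE 0.45, limma adjusted p = 0.000387). Against no carbon it was lower, at -1.70 (limma adjusted p = 0.0333). The PEP carboxykinase gene acu-6 was at 9303, 584 and 82.7 on Avicel and 115, 33.1 and 38.3 on sucrose, with Avicel replicate 3 below sucrose replicate 1. Its call, at a log2 fold change of 3.84 (SE 1.42, limma adjusted p = 0.0313, and 2.04 without Avicel replicate 1 and 5.44 without Avicel replicate 3), was lost without Avicel replicate 1 or 2 and without sucrose replicate 2 or 3 (adjusted p of 0.130, 0.0545, 0.0853 and 0.0797), and also with the replicate number as a block (0.0611). The isocitrate lyase gene acu-3 of the glyoxylate cycle was at 293, 229.5 and 151 on Avicel, 524, 331 and 325 on sucrose and 1874, 836 and 808 without carbon. It was not called against sucrose and was lower on Avicel than without carbon, with a log2 fold change of -2.31 (limma adjusted p = 0.00102).

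Most heat shock genes outside the endoplasmic reticulum fell. Of 10 tested heat shock genes, 8 were lower (80%, against 18.4% of all genes) and none higher (median -2.08). The gene hsp70-2 (NCU02075) was at 1982, 187 and 232 FPKM on Avicel and 14734, 31180.0 and 35572 on sucrose, a log2 fold change of -5.84 (SE 0.71, limma adjusted p = 1.55e-05, and -6.92 without Avicel replicate 1 and -5.22 without Avicel replicate 2). For hsp80, of the Hsp90 family, the values were 1515, 771 and 762 on Avicel and 4637, 3612 and 3958 on sucrose, a log2 fold change of -2.07 (SE 0.28, limma adjusted p = 3.88e-05). The groups were apart for both, with Avicel replicate 1 the highest of its group. The small heat shock protein gene hsp30 was at 302, 124 and 114 on Avicel and 145, 172 and 156 on sucrose, with overlapping groups, and was not called.

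Several housekeeping lists showed small changes. None of 9 histone genes was called, and 2 of them had groups that did not overlap, beside 63.7% of all genes tested. Of 30 proteasome genes 2 were lower (6.67%, against 18.4% of all genes), rpn-9 and rpn-11, and the list median was -0.57. Both calls dropped under a log2 size of 1 without Avicel replicate 1 (-0.94 and -0.95), and rpn-11 also without sucrose replicate 1 (-0.91) and with the replicate number as a block (adjusted p = 0.0573). The plasma membrane proton pump gene pma-1 (NCU01680) was at 4029, 4065 and 4092 FPKM on Avicel and 20595, 15545 and 17585 on sucrose, a log2 fold change of -2.13 (SE 0.24, limma adjusted p = 8.85e-06), and its call was lost under quantile normalization (-0.77, limma adjusted p = 0.0901). Of the 17 other proton and calcium pump genes tested, vma-8 of the vacuolar pump and nca-3 were higher. The call of vma-8 (1.03) was lost without Avicel replicate 2 (0.95) or 3 (0.93) or sucrose replicate 3 (0.99), and that of nca-3 under quantile normalization (adjusted p = 0.0863). A missed threshold does not show that levels were equal. Of the 30 proteasome genes 21 had groups that did not overlap, beside 63.7% of all genes tested.

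**Figure D4:**
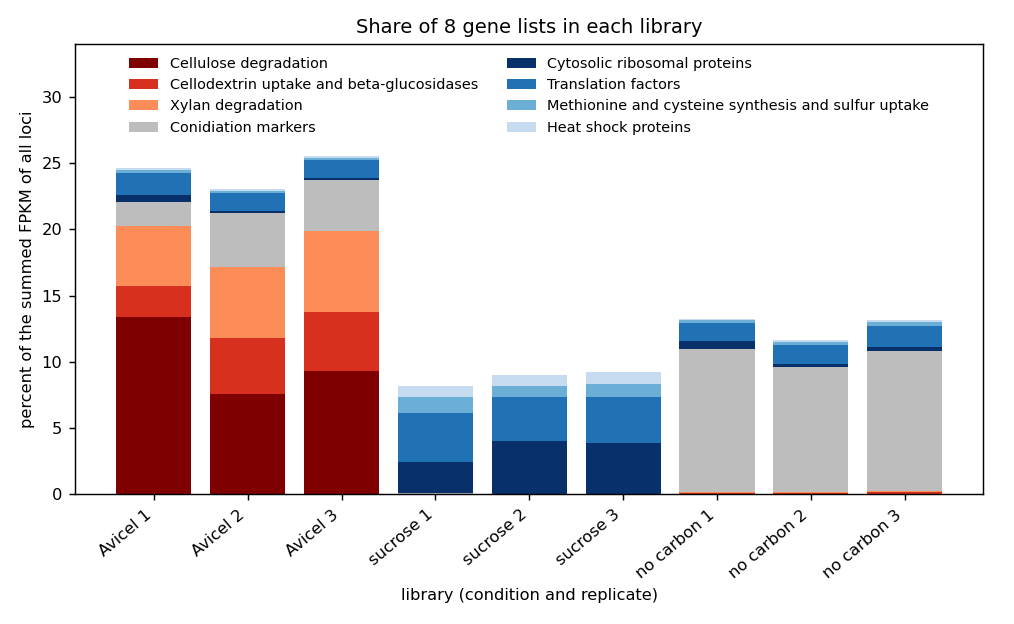
Percent of the summed FPKM of all loci taken by 8 gene lists in each library of the Avicel, sucrose and no carbon groups. Cellulose genes fill 7.59% to 13.4% on Avicel and crp genes 2.40% to 3.99% on sucrose. The genes of the conidiation list, mainly ccg-1 and eas, fill 9.48% to 10.8% without carbon, which is no measure of conidia.

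As a share of all FPKM, the 22 cellulose genes took 13.4, 7.59 and 9.33% in Avicel replicates 1 to 3 and 0.0141, 0.00883 and 0.00636% on sucrose. The xylan genes took 4.48, 5.38 and 6.09% on Avicel, and the cellodextrin genes 2.39, 4.20 and 4.45%. The 7 crp genes went from 2.40, 3.99 and 3.86% on sucrose to 0.579, 0.182 and 0.187% on Avicel. In these shares Avicel replicate 1 was highest of its group for cellulose and crp genes and lowest for xylan and cellodextrin genes. Shares are parts of a whole, so a rise of some lowers the others.

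Markers of conidia, the asexual spores, and of sexual tissue moved with the carbon source. Of 12 tested conidiation genes 9 were higher on Avicel (75%, against 30.3% of all genes) and none lower. The hydrophobin gene eas (NCU08457), for the coat of conidia, was at 34619.9, 20371 and 17326 FPKM on Avicel, 62.5, 388 and 155 on sucrose and 206272, 78251 and 65514 without carbon. The clock-controlled gene ccg-1 (NCU03753) was at 52427, 135310.0 and 138708 on Avicel, 1411, 1327 and 328 on sucrose and 171706, 255469 and 301939 without carbon. Both rose over sucrose in every Avicel library, and their highest values were without carbon. The log2 fold changes over sucrose were 7.20 (SE 0.66, limma adjusted p = 1.53e-06, and 6.55 without sucrose replicate 1 and 7.86 without sucrose replicate 2) for eas and 6.87 (SE 0.61, limma adjusted p = 1.19e-06, and 6.18 without sucrose replicate 3) for ccg-1. The summed share of the 12 markers was 1.81, 4.04 and 3.86% of FPKM on Avicel, 0.0358, 0.0298 and 0.0125% on sucrose and 10.8, 9.48 and 10.6% without carbon. On Avicel and without carbon nearly all of this share came from ccg-1 and eas. It therefore says little about the other markers and is no measure of conidia. Among the markers con-13 was listed at 0 in all 3 sucrose libraries, con-6 and con-8 in sucrose replicate 1, and con-10 in sucrose replicates 1 and 3. Whether more cells of a type or more RNA per cell underlie these values cannot be told apart in bulk mycelium, and their part in the other changes was not tested.

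Of 8 tested markers of mating and sexual tissue, 6 were higher (75%, against 30.3% of all genes) and poi-2 was lower. The call of poi-2 rests on low values, at 0, 0 and 0 FPKM on Avicel and 6.31, 6.34 and 3.66 on sucrose, and did not hold when 5 in place of 1 FPKM was added before the log (adjusted p = 0.0955, limma) or when values under 10 FPKM were set to 10. The pheromone gene ccg-4 (NCU02500) was at 1211, 3252 and 3709.8 FPKM on Avicel and 6.37, 45.2 and 25.1 on sucrose, and the mating-type gene matA-1 at 46.8, 283 and 337 on Avicel and 0, 9.58 and 7.56 on sucrose. For both, Avicel replicate 1 was the lowest of its group and still above every sucrose library. The log2 fold changes were 6.88 (SE 0.58, limma adjusted p = 6.70e-07, and 6.14 without sucrose replicate 1) and 5.21 (SE 0.85, limma adjusted p = 0.000178, and 6.11 without Avicel replicate 1, 4.12 without sucrose replicate 1 and 5.83 without sucrose replicate 2). The summed share of the list was 0.0371, 0.105 and 0.116% of FPKM on Avicel and 0.00407, 0.00217 and 0.00158% on sucrose, and poi-2, matA-2 and matA-3 were listed at 0 in all Avicel libraries. Their part in the other changes was not tested.

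Of 6 tested catalase and superoxide dismutase genes 3 were higher and 1 lower, and of 5 tested glycogen and trehalose genes 2 were higher and none lower (list median -0.01), beside 30.3% of all genes higher. The catalase gene cat-2 (NCU05770) was at 1949.6, 1682 and 1587 FPKM on Avicel and 41.3, 15.7 and 11.1 on sucrose, a log2 fold change of 6.41 (SE 0.36, limma adjusted p = 2.64e-08), and cat-1 was higher too. The catalase gene cat-3 was lower, at 206, 154 and 158 on Avicel and 1260.3, 382 and 337 on sucrose, a log2 fold change of -1.67 (SE 0.40, limma adjusted p = 0.0031, and -1.06 without sucrose replicate 1). The trehalase gene tre-1 was at 111, 363 and 398 on Avicel and 3.04, 11.1 and 10.5 on sucrose, and the glycogen synthase gene gsy-1 at 1875, 2006 and 1947 on Avicel and 2038, 1937 and 1912 on sucrose. Of these, tre-1 rose without overlap between groups, by 4.94 (SE 0.49, limma adjusted p = 2.57e-06, and 5.53 without Avicel replicate 1) log2 units, and gsy-1 overlapped. The autophagy gene atg-8 was at 3619.6, 3444 and 3271 on Avicel and 2188, 1547 and 1202 on sucrose, a log2 fold change of 1.11 (SE 0.21, limma adjusted p = 0.000623). Its list of autophagy and peroxisome genes had 4 of 23 higher (17.4%, against 30.3% of all genes) and 3 lower, with a median of -0.06. The carotenoid genes al-1, al-3 and cao-2 were higher as well, 3 of 5 tested.

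Avicel was also set against no carbon. Of the 8700 genes, 554 were called (6.37%), and 351 genes were higher on Avicel (4.03%) and 203 lower (2.33%), with the same rule for a call. Both comparisons use the same Avicel libraries, so each list is given with its own counts. Against no carbon 16 of 21 cellulose genes, 7 of 8 cellodextrin genes, 13 of 16 xylan genes, 3 of 5 pentose genes and 6 of 8 endoplasmic reticulum genes were higher and none lower. No gene of arginine, branched-chain, histidine, lysine, sulfur amino acid, purine, polyamine, lipid, ribosomal protein or mitochondrial import lists was called against no carbon. That does not show equal levels. The comparison of no carbon with sucrose, which shares the sucrose libraries, had 4547 called genes (52.3%), of which 2977 were higher without carbon (34.2%) and 1570 lower (18.0%). In it 10 of 12 arginine genes, 8 of 9 branched-chain genes, all 7 crp genes and 20 of 21 mitochondrial import genes were lower than on sucrose. Higher without carbon than on sucrose were 11 of 21 cellulose genes (2 lower) and 7 of 8 cellodextrin genes (none lower). So were 13 of 16 xylan genes (1 lower) and 3 of 5 pentose genes (none lower). The medians of these 4 lists were 1.34, 4.00, 2.68 and 1.80. For ilv-2 the no carbon values were 69.8, 63.8 and 79.4 FPKM, for arg-10 54.3, 42.3 and 66.6 and for crp-5 6543, 2771 and 3691.

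A few biosynthesis genes were lower on Avicel than on sucrose and higher than without carbon. Against no carbon, 3 of 10 aromatic genes, 1 of 8 genes of the threonine list and 1 of 17 vitamin genes were higher, beside 4.03% of all genes. Another vitamin gene was lower, and the biosynthesis lists without any call are given above. The gene nic-7 (NCU03963) was at 252, 107 and 152 FPKM on Avicel and 631, 1456 and 1630.3 on sucrose, and at 14.9, 16.9 and 24.6 without carbon. It was lower than on sucrose by a log2 fold change of -2.83 (SE 0.40, limma adjusted p = 5.41e-05) and higher than without carbon by 3.06 (limma adjusted p = 0.00035). The tryptophan gene trp-3 (NCU08409), for tryptophan synthase, was at 904, 488 and 534 on Avicel and 1976, 1588 and 1517 on sucrose, and at 119, 82.9 and 143 without carbon. The 3 groups did not overlap for either gene, with Avicel between the others. The aromatic genes aro-6 and aro-8 and the threonine gene hom-1, for homoserine dehydrogenase, were likewise lower than on sucrose and higher than without carbon, the latter by 2.25 (limma adjusted p = 0.000406), 1.26 (limma adjusted p = 0.000862) and 1.91 (limma adjusted p = 0.00102). The same held for am, by 1.12 (limma adjusted p = 0.00435), and cit-1, by 1.14 (limma adjusted p = 0.0053).

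**Figure D5:**
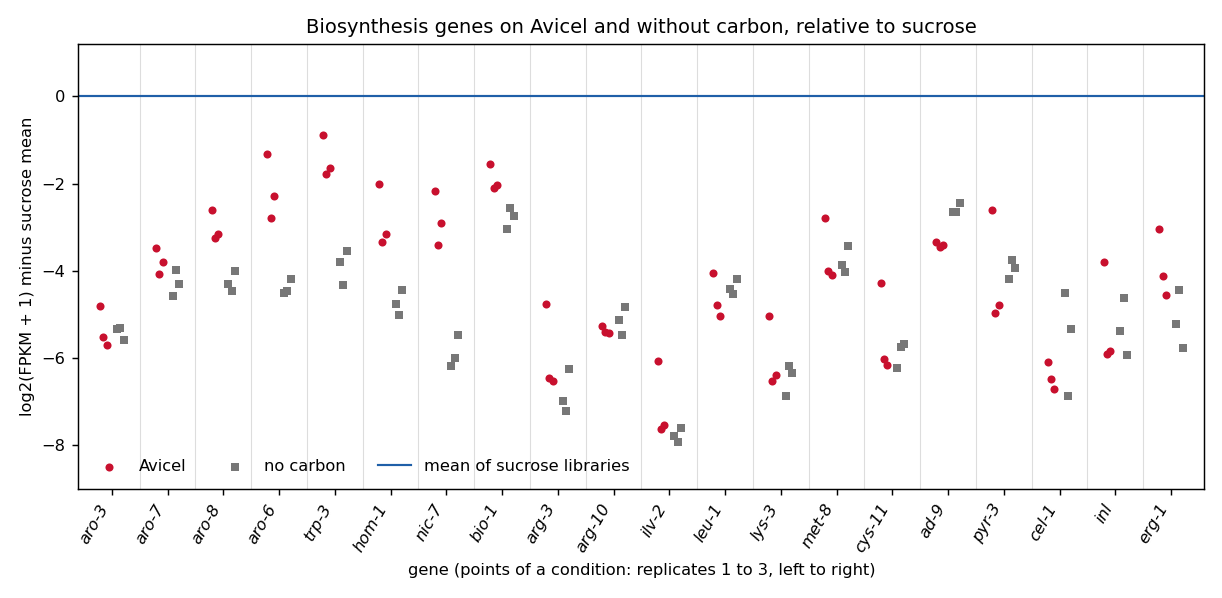
Log2(FPKM + 1) of 20 biosynthesis genes in each Avicel (circles) and no carbon (squares) library, relative to the mean of the 3 sucrose libraries (line at 0). All points lie below the line, and ilv-2 is among the lowest, while aro-6, aro-8, trp-3, hom-1 and nic-7 have Avicel points above the no carbon points.

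The genes with the largest changes included several without a symbol. Of the 15 largest increases among genes of at least 50 FPKM on Avicel, 9 had a symbol, all from cellulose, cellodextrin or xylan lists, and 6 did not, of which NCU04870 and NCU05159 are in the xylan list. Of the others, NCU07898 was at 15239.5, 3437 and 4967 FPKM on Avicel and 0, 4.63 and 0 on sucrose, and NCU10107 at 601, 2953 and 3604 on Avicel and 0 in all 3 sucrose libraries. Of the 15 largest decreases, 5 had a symbol (ilv-2, pdx-1, leu-2, cel-1 and ilv-6) and 10 did not. NCU03561 fell furthest, from 1377, 3052 and 3355 on sucrose to 16.5, 2.55 and 2.02 on Avicel, a log2 fold change of -8.72 (SE 0.70, limma adjusted p = 4.58e-07, and -9.53 without Avicel replicate 1). NCU09497 was at 1971, 3907 and 4066 on sucrose and 39.7, 11.3 and 7.54 on Avicel. In both genes the highest Avicel value was in replicate 1 and lay far below every sucrose value. NCU09852 was at 66.1, 113 and 153 on sucrose and listed at 0 in all 3 Avicel libraries.

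The authors' deposited table of pooled FPKM per carbon source gave the same direction for 4173 of 4175 called genes found in it and the other direction for 2. These pooled values come from the same samples and are no separate evidence. Leaving out Avicel replicate 1 gave 2825 higher and 1600 lower genes, and leaving out both libraries numbered 1 gave 2800 and 1713.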

How the data were processed

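Poly(A) RNA of 15 libraries was sequenced, and per the submitters' processing notes TopHat 1.2.0, Cufflinks 0.9.3 and Cuffdiff were used. For the genome build and annotation, the sources used here name none. The deposited values are FPKM per transcript, per the file headers, with a coverage signal per transcript deposited beside them. Coverage was used only for depth, since read counts were not used here. FPKM were summed over the transcripts of each of 9733 loci, of which 164 held more than 1 transcript. At 863 loci the transcript-level and gene-level tables gave different identifiers, and those of the gene-level tables were used. Symbols came from a RefSeq gene table, and positions are the files' own.

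limma 3.58.1 in R 4.3.3 was fitted with a variance trend to log2(FPKM + 1) of 14 libraries in 5 replicated groups, for genes averaging 1 FPKM or more, with two-sided tests and Benjamini-Hochberg adjustment over 8700 genes (9 residual degrees of freedom). On simulated data for this comparison, with 200 of 8700 genes changed, 77% of changes of 1.5 log2 units and 96% of changes of 3 were called, with 7 false calls among 8500 unchanged genes. The simulation used independent normal noise, changed no genes of the lowest levels and held no difference in depth or scaling between libraries. It also changed far fewer genes than the 48.6% called here, so its false calls are no error rate for the real comparison. The replicates are assigned by the labels, and p-values measure the spread within all 5 groups of the fit, not within Avicel and sucrose alone. With only the 6 libraries compared in the fit, 2205 genes were higher and 1509 lower. The calls of tef-1 and col-26 were among those lost in that fit (limma adjusted p of 0.0634 and 0.0563).

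The members and the 46 gene lists were chosen with earlier results of these data known. A rule gave 223 genes that could be named, namely the called genes of each list with the largest changes, 6 at most, all regulators, the 15 largest increases and decreases and the 5 most abundant genes of each group. The text gives values for only some of them, picked for their role with values known. Other list members named with a direction (leu-5, leu-6, leu-4, arg-1, arg-12, ota, trp-5, cys-3, nit-2, trp-3, gh3-5 and the like) were chosen after their values were seen. Deviations of same-numbered Avicel and sucrose libraries from their group means correlated at 0.181, 0.120 and 0.179 across genes. The shared numbers in the labels were treated as pairs in an added fit with the replicate number as a block. Avicel replicate 3 with sucrose replicate 2 stood at 0.157, and Avicel replicate 2 with sucrose replicate 3 at 0.058. The correlations thus do not show that the numbers 2 and 3 mark pairs. Alternatives covered the pseudocount, filter, scaling, variance model, libraries in the fit, thresholds and identifiers. Scaling to an equal sum of FPKM times length was chosen after seeing the data. A planned search for promoter motifs was not run, as no promoter sequences were used here.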

Additional observations from a re-analysis of the deposited data

How the results depend on the processing

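For Avicel against sucrose, the alternatives run kept the counts of higher and lower genes within 1.5 times the reported ones, except that requiring a change of 2 log2 units left 1512 higher and 828 lower genes (2340 in all). With 1 library left out at a time there were 2326 to 2825 higher, 1523 to 1739 lower and 3951 to 4425 called genes. With the replicate number as a block, which pairs the libraries, 2181 genes were higher and 1503 lower. The share of calls that were higher was 50.5% under quantile normalization, 56.0% with values under 10 FPKM set to 10, 68.9% under upper-quartile scaling and 72.7% with an equal sum, against 62.2% as reported, and these moved the median of all genes by -0.23, -0.15, 0.23 and 0.36. For Avicel against no carbon, lower genes numbered 98 with the 9 libraries of the earlier source and 712 with an equal sum (969 called), and leaving out 1 library gave 307 to 350 higher, 129 to 232 lower and 442 to 582 called genes, with 129 lower without no carbon replicate 3. The causes were not tested. Of 219 called genes named by the rule, 162 lost their call in none of the 24 settings that tested them, and none reversed. Only 215 of the 219 were found with the identifiers of the transcript-level tables, and 217 passed a filter of 5 FPKM. The block ended 10 of these calls, quantile normalization 17 and leaving out Avicel replicate 1 ended 7. Leaving out Avicel replicate 1 moved 46 of the named called genes by over 1.5-fold and leaving out sucrose replicate 1 moved 27. Both libraries numbered 1 are the shallowest of their groups, so genes near 0 are least certain there.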
